A study of Mus musculus with 7 samples.

Results

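The genes described here encode 8 enzymes of cholesterol synthesis: Hmgcs1, Idi1, Fdps, Fdft1, Sqle, Lss, Cyp51 and Dhcr7. They were chosen by gene symbol, among probe sets whose annotation names a single gene. All 8 were found among the 12393 genes named on the array, with 20 probe sets between them. The brightest probe set of a gene, by its mean over all arrays, stands for it, and the other probe sets are given beside it. All 8 passed the filter on dim genes, on every array. Genes of cholesterol uptake, control and export were on a separate list and are described after the enzymes.

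RNA came from gliomas of 3 null (Ptprd-/- p16-/-), 2 heterozygous (Ptprd+/- p16-/-) and 2 wild-type (Ptprd+/+ p16-/-) samples, with 1 expression array each. Ptprd encodes a receptor-type protein tyrosine phosphatase. All groups, the wild-type one included, lacked the cell cycle inhibitor p16 and were of a mixed C57/BL6 and FVB/N background. Tumours had been started in newborn mice, on postnatal day 1 to 3, by injection of RCAS PDGFB GFP. This avian retrovirus delivers the growth factor PDGF-B together with green fluorescent protein, and it enters only cells that carry its receptor tv-A, here driven by the Nestin promoter. Tumours were taken when symptoms appeared or at 12 weeks, and living fluorescent cells were sorted. The labels do not say whether an array holds the tumour of 1 mouse, so p-values measure the spread between these samples, which may be partly technical.

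Cholesterol is built from acetyl units. Hmgcs1 makes HMG-CoA, which is reduced to mevalonate; Idi1 and Fdps turn the isoprene units made from mevalonate into farnesyl diphosphate; Fdft1 joins these into squalene; and Sqle and Lss close squalene into lanosterol, which Cyp51, Dhcr7 and other enzymes convert to cholesterol. When sterols in the membrane of the endoplasmic reticulum run low, the transcription factor SREBP2 is released and switches on the genes of the whole route together. The brain makes its own cholesterol, because lipoproteins of the blood do not cross the blood-brain barrier, and glial cells, above all cells that form myelin, are its main producers.

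RefSeq start regions in the build GRCm38.p6 were at hand for 5 of the 8 genes. Windows of 250 bases before and 50 after each start were searched on both strands for TCACNCCAC (the core of the sterol regulatory element that SREBP factors bind), CCAAT (the NF-Y box), GGGCGG (the Sp1 or GC box), and for the shorter CACNCCAC, which lies within the first, and CACGTG (the E-box). Hmgcs1 had the only sterol element match among the 7 windows of the 5 genes, against 1.24% of all 32851 windows. A CCAAT box was in 5 of the 7 windows, against 37.4% of all, and a GC box in 6 of the 7, against 35.7%. In 40 windows of the other pathway genes listed below, the sterol element was in 0, a CCAAT box in 52.5% and a GC box in 65.0%. Dhcr7 accounts for 3 of the 7 windows, and some of its windows overlap. The shorter sterol motif and the E-box were each in 1 of the 7, against 6.24% and 7.15% of all. The 160 bases before the gene start are shown for Hmgcs1, which has the sterol element match, for Dhcr7, the single enzyme gene that passed a test between genotypes, and for Idi1, one of the genes that was higher on every null than on every wild-type array. Capitals mark matches to TCACNCCAC, CCAAT and GGGCGG on either strand, and each stretch is written in the direction of its gene.
Hmgcs1, chr13:119690191-119690350, plus strand: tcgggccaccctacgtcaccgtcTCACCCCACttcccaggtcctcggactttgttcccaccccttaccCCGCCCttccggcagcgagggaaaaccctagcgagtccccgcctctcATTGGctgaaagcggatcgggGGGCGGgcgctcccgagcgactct
Dhcr7, chr7:143823007-143823166, plus strand: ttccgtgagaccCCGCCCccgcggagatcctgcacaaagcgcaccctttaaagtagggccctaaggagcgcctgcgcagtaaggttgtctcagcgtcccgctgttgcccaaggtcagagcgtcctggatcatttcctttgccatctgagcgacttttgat
Idi1, chr13:8885446-8885605, plus strand: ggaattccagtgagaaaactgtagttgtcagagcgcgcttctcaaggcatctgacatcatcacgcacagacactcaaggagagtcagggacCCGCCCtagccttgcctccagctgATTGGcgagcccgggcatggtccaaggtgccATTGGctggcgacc
In the Hmgcs1 stretch the sterol element starts at position -137 from the start, followed by a GC box, an inverted CCAAT box and another GC box. The Idi1 stretch holds a GC box and a pair of inverted CCAAT boxes, and the Dhcr7 stretch holds a GC box near its far end. Dhcr7 has 3 start windows, of which the most upstream is shown. A match is a description of the letters and does not show that a factor binds.

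The arrays of the 3 genotypes had similar medians, between 6.63 and 6.72 on the log2 scale, but the heterozygous arrays stood apart. Heterozygous arrays correlated with the other arrays at 0.976 to 0.987, while null and wild-type arrays correlated among themselves at 0.990 to 0.995. Each value is between a pair of arrays, across all probe sets other than controls. Null replicate 1 and heterozygous replicate 1 carried both Xist (log2 levels 12.73 and 11.16), the RNA of the inactive X chromosome, and the Y-linked Eif2s3y (8.69 and 9.28), while the other 5 arrays carried high levels of just one of them. Ptprd itself was at 9.61, 8.95 and 9.93 in null, 9.42 and 9.57 in heterozygous and 10.86 and 10.89 in wild-type samples. All 5 deficient arrays lay below wild type, and null and heterozygous overlapped. Ptprd fell by 1.37 ± 0.28 in heterozygous against wild type (log2, SE, adjusted p = 0.0311), and the same difference in null against wild type did not pass (adjusted p = 0.882). Whether its probe set lies in the part removed by the targeting is not known here. Of the marker lists, that of oligodendrocyte progenitors summed (on the linear scale) to 48728 to 51490 in null, 33032 to 41202 in heterozygous and 54284 to 54432 in wild type. Microglia and macrophage markers ran the other way, with 1057 to 1570 in null, 2584 to 3357 in heterozygous and 933 to 1281 in wild type. In heterozygous against wild type 14 of the 18 tested macrophage markers rose and 0 fell, and in null against heterozygous 0 rose and 11 fell. For each marker list, the shares of all genes called were 4.20% higher and 5.95% lower in the first comparison. In the second they were 5.0% higher and 3.96% lower. Of the 20 listed, Itgam was dim on every array. Of 8 progenitor markers 4 fell in heterozygous against wild type and 2 rose in null against heterozygous. Markers of myelinating oligodendrocytes, the main cholesterol makers of white matter, summed to 19773 to 27021 in null, 22406 to 24769 in heterozygous and 20682 to 23582 in wild type. Of the 10 tested, 0 passed limma's threshold in any pair. At an unadjusted p under 0.05, Mag, Cldn11 and Myrf were higher and 0 lower in heterozygous against wild type (29.9% of all genes). The same 3 were lower and 0 higher in null against heterozygous (28.5%), and there were 0 in null against wild type (5.14%). Summed markers of astrocytes were at 9359 to 11380 in null, 8102 to 9281 in heterozygous and 8540 to 10030 in wild type, while single markers moved in opposite directions. Of 10 tested, Gfap (1.49), Aldh1l1 (1.46) and Sox9 (1.34) rose and S100b (-0.76) fell in heterozygous against wild type (log2 differences), and 1 rose and 4 fell in null against heterozygous. Those of neurons (Rbfox3, Syt1, Gad2 and Slc17a6 dim on every array) were at 2516 to 2775, 1421 to 1911 and 2585 to 2761 in the same order, and those of endothelium and pericytes (Pecam1, Cdh5 and Tek dim) at 326 to 503, 469 to 538 and 402 to 509. Of 5 neuron markers tested, Snap25 (-0.84) and Gad1 (-1.24) fell in heterozygous against wild type and both rose in null against heterozygous. The other 3, Tubb3 (0.52), Map2 (0.29) and Stmn2 (0.03), lay above 0 in heterozygous against wild type and did not pass. Of 7 endothelial and pericyte markers, Tagln rose in the first (1.58) and fell in the second (-1.29). In null against wild type 0 markers of any list passed limma's threshold, and 1 macrophage and 1 astrocyte marker had an unadjusted p under 0.05. In bulk RNA, fewer cells of a type and less RNA per cell cannot be told apart.

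Dhcr7, the last enzyme of the route, rose in null against heterozygous tumour cells, and the other 7 enzymes passed no test between genotypes. For 3 of 8 enzymes, Idi1, Fdps and Fdft1, named after their values were seen, all 5 Ptprd-deficient arrays lay above both wild-type arrays, as they did for 7.11% of all genes. Their log2 differences of 0.29 to 0.48 did not pass, wild type replicate 1 was the lowest array for each of the 3, and without it 0 of 8 enzymes had an unadjusted p under 0.05 in null against wild type. In the other bright probe sets of Idi1 and Fdft1, the null and the heterozygous arrays both overlapped wild type. With limma and Benjamini-Hochberg adjustment over the 9243 genes tested, 0 of 8 passed the threshold of 0.05 in heterozygous against wild type, where 10.1% of all genes did. In null against wild type 0 of 8 passed, as did 0% of all genes. In null against heterozygous 1 of 8 passed, Dhcr7, which rose, against 8.96% of all genes called in either direction and 5.0% called higher. The F test for any difference among the 3 genotypes called 0 of 8, against 5.65% of all genes (522), a count that was 9 to 478 with 1 array left out. Counts at an unadjusted p under 0.05 were 3 of 8 in heterozygous against wild type (29.9% of all genes), 4 of 8 in null against wild type (5.14%), 2 of 8 in null against heterozygous (28.5%) and 2 of 8 in the F test (26.5%). In the pairs of genotypes all of these enzymes were higher in the first-named genotype, as were 12.7%, 2.75% and 16.5% of all genes. The 95% intervals of the 8 differences lay between -0.66 and 0.92 in heterozygous against wild type, -0.30 and 0.84 in null against wild type, and -0.54 and 0.85 in null against heterozygous (log2). No interval reached a difference of 1 log2 unit.

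**Figure D1:**
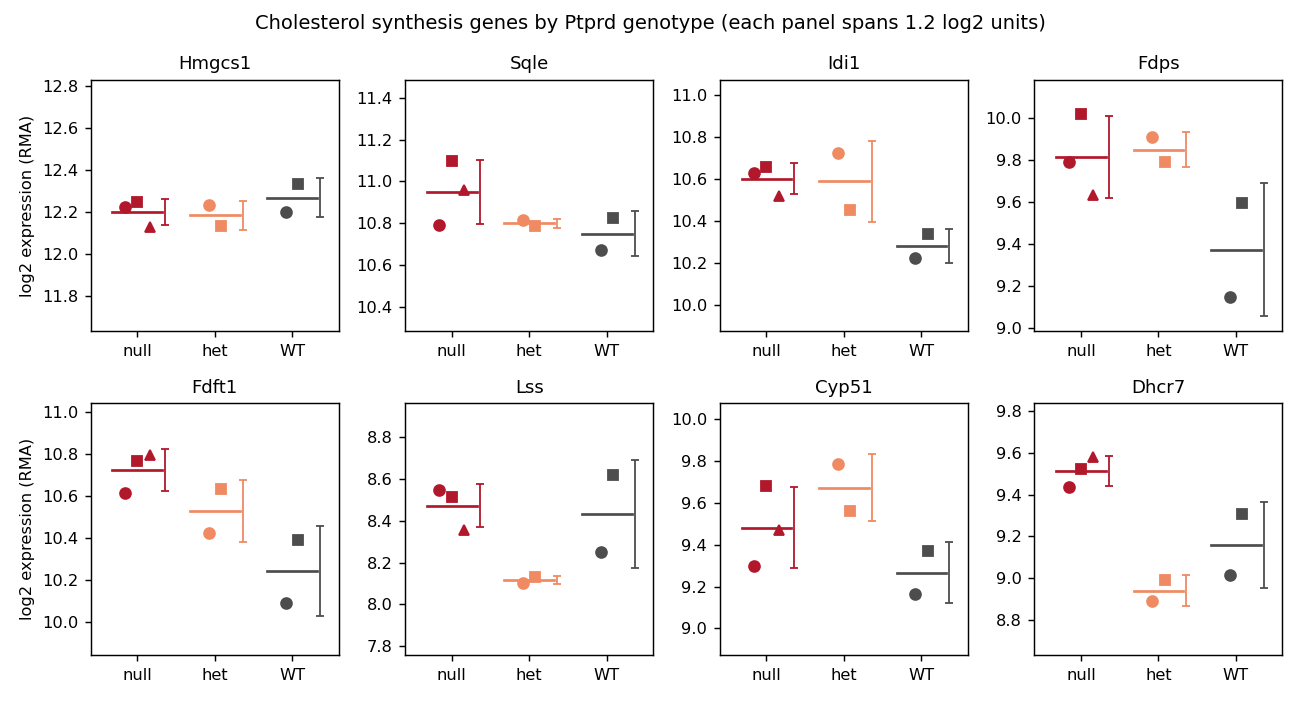
Log2 expression of the 8 cholesterol synthesis genes on each array, in null, heterozygous (het) and wild-type (WT) tumour cells. Circles, squares and triangles are replicates 1, 2 and 3, horizontal lines are group means and error bars 1 SD, and every panel spans 1.2 log2 units. Dhcr7 lies between 9.44 and 9.58 in null and between 8.89 and 8.99 in heterozygous cells, while Hmgcs1 stays within 12.13 to 12.33 on all arrays.

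**Figure D2:**
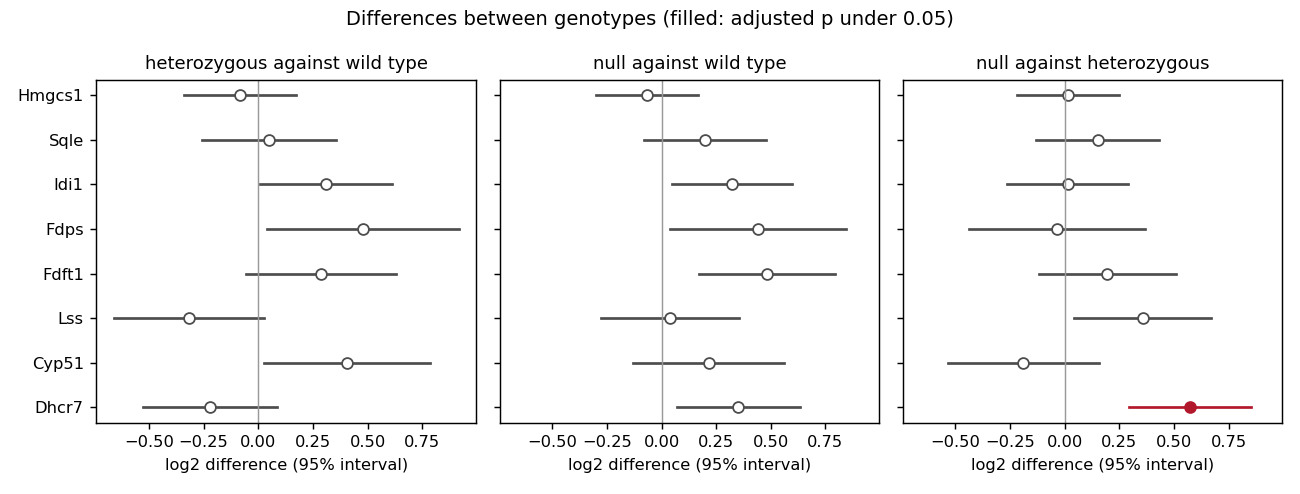
Log2 differences of the 8 genes between pairs of genotypes (points) with 95% intervals (lines). A filled red point passed the adjusted threshold, which was so for Dhcr7 in null against heterozygous cells (0.57).

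Of the early steps, Hmgcs1, the HMG-CoA synthase, was the most even gene by its brightest probe set. Its log2 level was 12.22, 12.25 and 12.13 in null, 12.23 and 12.13 in heterozygous, and 12.20 and 12.33 in wild-type cells. The 3 groups overlapped, with wild type replicate 2 the highest array. The range over all arrays was 0.20, against a median range of 0.53 for all genes tested. The difference was -0.07 (95% interval -0.30 to 0.17) in null against wild type and -0.08 (-0.34 to 0.17) in heterozygous against wild type. Its other 3 probe sets gave differences between -0.11 and 0.13 in null against wild type, so its probe sets do not share a sign. They were less even, with levels of 12.00 to 12.32, 12.00 to 12.31 and 9.98 to 10.40 over the arrays.

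Idi1, the isopentenyl diphosphate isomerase, was at 10.63, 10.66 and 10.52 in null, 10.72 and 10.45 in heterozygous, and 10.22 and 10.34 in wild-type cells. All 5 Ptprd-deficient arrays lay above both wild-type arrays. The difference was 0.32 ± 0.12 (SE, adjusted p = 0.882) in null and 0.31 ± 0.13 (adjusted p = 0.161) in heterozygous against wild type, and neither passed. A second probe set gave 0.18 in null and -0.01 in heterozygous against wild type. There both groups overlapped wild type, with null replicate 3 (9.17) and heterozygous replicate 2 (9.03) below wild type replicate 2 (9.24).

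Fdps, the farnesyl diphosphate synthase, had log2 levels of 9.79, 10.02 and 9.63 in null, 9.91 and 9.79 in heterozygous, and 9.15 and 9.60 in wild-type cells. The groups of deficient cells again did not overlap wild type, but the lowest null array was close to the higher wild-type array, and the wild-type arrays were themselves far apart. The difference was 0.44 ± 0.17 (SE, adjusted p = 0.882) in null and 0.48 ± 0.19 (adjusted p = 0.141) in heterozygous against wild type. Its second probe set was dim on every array.

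Fdft1, the squalene synthase, catalyses the step that commits farnesyl diphosphate to sterols. It was at 10.61, 10.77 and 10.79 in null, 10.42 and 10.63 in heterozygous, and 10.09 and 10.39 in wild-type cells. Wild-type arrays were lowest, heterozygous in between and null mostly highest, with 1 heterozygous array above the lowest null array. The difference of 0.48 ± 0.13 in null against wild type had the smallest unadjusted limma p of the 8 genes in that comparison, 0.00799, which did not pass the adjustment (0.882). In heterozygous against wild type it was 0.29 ± 0.14 (SE, adjusted p = 0.231). Its other bright probe set gave 0.28 and 0.07, in the same direction and smaller. There the groups overlapped, with null replicate 1 (9.22) and both heterozygous arrays (9.27 and 9.27) below wild type replicate 2 (9.37). The 2 further probe sets of Fdft1 were dim on every array.

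Sqle, the squalene epoxidase and a rate-limiting enzyme of the sterol part of the route, was at 10.79, 11.10 and 10.96 in null, 10.81 and 10.79 in heterozygous, and 10.68 and 10.83 in wild-type cells. The groups overlapped, and the difference in null against wild type was 0.20 (95% interval -0.08 to 0.48), and in heterozygous against wild type 0.05 (-0.26 to 0.36). Lss, the lanosterol synthase, was at 8.55, 8.51 and 8.35 in null, 8.10 and 8.13 in heterozygous, and 8.25 and 8.62 in wild-type cells. Both heterozygous arrays were below all others, and null and wild type overlapped. Its difference was 0.36 ± 0.13 (SE, adjusted p = 0.134) in null against heterozygous and -0.32 ± 0.15 (adjusted p = 0.196) in heterozygous against wild type. The other probe sets of Lss gave 0.19 and 0.02 in the first and -0.11 and 0.23 in the second, and in neither of them were the heterozygous arrays below all others.

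Cyp51, the lanosterol demethylase, was at 9.30, 9.68 and 9.47 in null, 9.78 and 9.56 in heterozygous, and 9.16 and 9.37 in wild-type cells. Both heterozygous arrays lay above both wild-type arrays, and null overlapped both other groups. The difference in heterozygous against wild type was 0.41 ± 0.16 (SE, adjusted p = 0.146), and the other 2 probe sets gave 0.37 and 0.39. In null against wild type the 3 probe sets gave 0.22, -0.08 and 0.22.

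Dhcr7, which reduces 7-dehydrocholesterol to cholesterol in the last step of one branch of the route, was the gene that passed. Its log2 level was 9.44, 9.52 and 9.58 in null, 8.89 and 8.99 in heterozygous, and 9.02 and 9.31 in wild-type cells. The 3 null arrays lay above all others and the 2 heterozygous arrays below all others. Dhcr7 rose 1.49-fold in null against heterozygous cells (log2 difference 0.57 ± 0.12, SE, adjusted p = 0.0353). It differed by 0.35 ± 0.12 in null against wild type (adjusted p = 0.882) and by -0.22 ± 0.13 in heterozygous against wild type (adjusted p = 0.303), and neither passed. The call is near the threshold: it ended under 10 of 20 alternatives, among them each setting that left out a null or heterozygous array (adjusted p between 0.0619 and 0.270). The log2 difference stayed between 0.52 and 0.62 under all 20, and with null replicate 1 and heterozygous replicate 1 (Xist and Y-linked RNA together) left out it was 0.56 (adjusted p = 0.270). The gene has a single probe set. The macrophage, progenitor and neuron marker sums given above also separated these 2 genotypes. Of 5 single neuron markers, 3 differences were above 0 and 2 below in null against heterozygous. The astrocyte sums lay close (lowest null 9359, highest heterozygous 9281), and of single astrocyte markers 1 rose and 4 fell in null against heterozygous. Of 10 tested myelinating oligodendrocyte markers, 3 were lower and 0 higher in null at an unadjusted limma p under 0.05 (28.5% of all genes). Over that list, 7 differences were below 0 and 3 above. The part of these cell types in the difference was not tested.

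**Figure D3:**
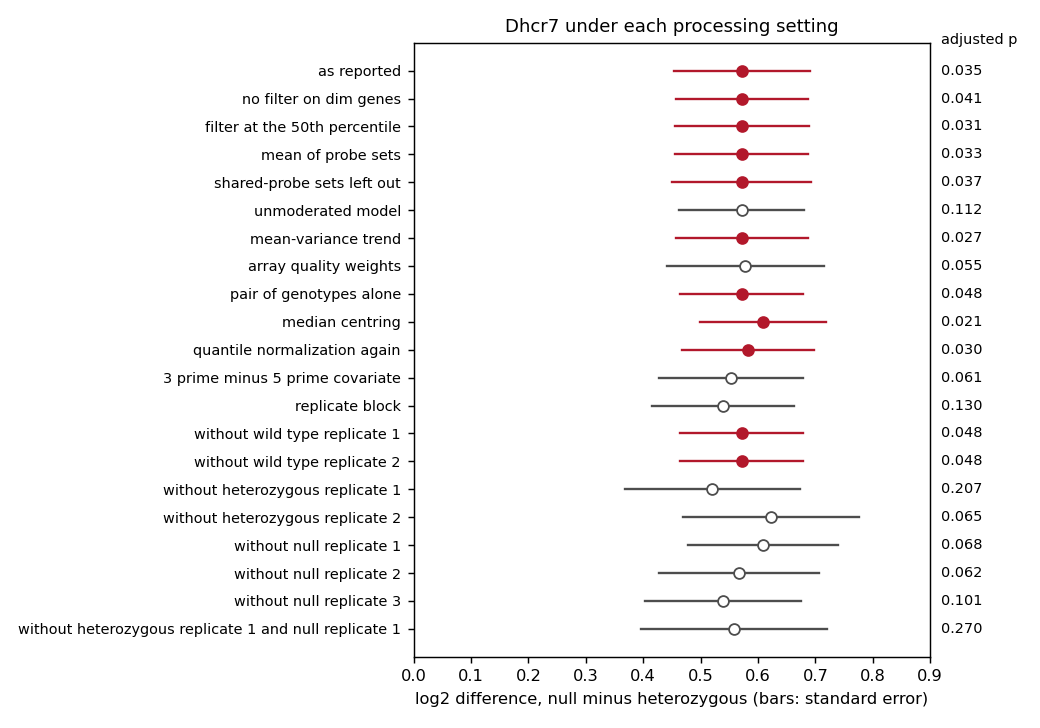
Log2 difference of Dhcr7 in null minus heterozygous cells (points, with bars of 1 standard error) under each processing setting, with the adjusted p at the right. Filled red points passed the threshold of 0.05; the difference stays between 0.52 and 0.62 while the adjusted p runs from 0.0214 to 0.270.

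Across arrays the genes did not move as 1 block. When each gene was centred on its mean over the 7 arrays, the mean of the 8 genes was 0.06, 0.20 and 0.07 in null, -0.00 and -0.05 in heterozygous, and -0.26 and -0.01 in wild-type cells (log2). Wild type replicate 1 was lowest for 5 of the 8 genes and below the gene's mean for all 8, and null replicate 2 was above it for all 8. Over the 7 arrays the Pearson correlation of a gene with the mean of the other 7 genes was 0.86 for Sqle, 0.80 for Fdft1, 0.76 for Fdps, 0.68 for Idi1, 0.51 for Dhcr7, 0.45 for Cyp51, 0.28 for Lss and 0.06 for Hmgcs1. The arrays share their processing, and these values are a description. The residual SD within genotypes had a median of 0.133 over the 8 genes, against 0.148 over all genes tested.

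In null against wild type 7 of the 8 differences were above 0, with a median of 0.27 against -0.00 over all genes, and the groups did not overlap for 4 of the 8, all higher in null, against 21.7% of all genes and 10.7% in that direction. The 4 were Idi1, Fdps, Fdft1 and Dhcr7, the same that had an unadjusted p under 0.05. This count rests on wild type replicate 1: without it 0 of 8 had an unadjusted p under 0.05 (3.35% of all genes) and the differences were 0.27 for Idi1, 0.22 for Fdps, 0.33 for Fdft1 and 0.21 for Dhcr7. The count was 2 of 8 without null replicate 2 (8.12% of all genes). It was 3 of 8 without null replicate 1 (4.31%) or null replicate 3 (3.65%), and 1 of 8 when each gene's probe sets were averaged (5.39%). In heterozygous against wild type the median was 0.17 against -0.04 over all genes, with 4 genes above and 2 below without overlap, against 61.3% of all genes (26.2% above and 35.1% below). The 3 genes with an unadjusted p under 0.05 there were Idi1, Fdps and Cyp51, all higher in heterozygous arrays; the count of such higher genes was 0 if either wild type replicate 1 or heterozygous replicate 1 was left out, and between 1 and 3 without any other single array. It was also 0 when probe sets were averaged (29% of all genes at that p, in either direction) and under the unmoderated model (24.7%). Without wild type replicate 1, which leaves 1 wild-type array, the difference was -0.50 for Lss and -0.36 for Dhcr7. With all arrays these were -0.32 and -0.22. In null against heterozygous the median was 0.08 against 0.04 over all genes, with 2 of 8 genes not overlapping, both higher in null (Lss and Dhcr7), against 43.7% of all genes and 25.7% in that direction. The other 6 differences there lay between -0.19 for Cyp51 and 0.20 for Fdft1. The comparisons share arrays, so their values are not independent of each other.

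Outside the enzymes, 40 further genes of the pathway were listed by role, of which 30 were on the array and 29 were tested. Ch25h was dim, and 10 others were not analysed here. In heterozygous against wild type 3 of the 29 fell and 0 rose, against 5.95% of all genes called lower and 4.20% called higher. At an unadjusted p under 0.05 there were 9, 7 lower (17.2% of all genes) and 2 higher (12.7%). In null against wild type 0 passed limma's threshold and 0 had an unadjusted p under 0.05. In null against heterozygous 1 rose and 0 fell, against 5.0% and 3.96% of all genes, and 8 had an unadjusted p under 0.05, all higher in null, against 28.5% of all genes and 16.5% in that direction.

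The 3 genes that fell in heterozygous cells act in moving cholesterol rather than making it. Abcg1, a transporter that exports cholesterol to lipoproteins, was at 10.68, 10.76 and 11.14 in null, 9.24 and 9.78 in heterozygous, and 10.85 and 11.02 in wild-type cells. Heterozygous arrays lay below all others, and Abcg1 fell by 1.43 ± 0.22 in heterozygous against wild type (log2, SE, adjusted p = 0.0143) and rose by 1.35 ± 0.20 in null against heterozygous (adjusted p = 0.0154). Abca1, which exports cholesterol to apolipoproteins, was at 11.01, 11.11 and 11.07 in null, 10.09 and 10.68 in heterozygous, and 11.62 and 11.29 in wild-type cells. Here the 3 genotypes did not overlap, with null in between. Abca1 fell by 1.07 ± 0.20 in heterozygous against wild type (adjusted p = 0.0251). It differed by 0.68 ± 0.19 in null against heterozygous (adjusted p = 0.0650) and by -0.40 ± 0.19 in null against wild type (adjusted p = 0.882). Its other 2 probe sets, above the filter's percentile on 3 and 0 arrays, gave -0.39 and -0.20 in heterozygous against wild type, and the mean of its probe sets gave -0.55.

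Npc1, which moves cholesterol out of lysosomes after uptake, had log2 levels of 9.58, 9.79 and 9.37 in null, 8.62 and 9.01 in heterozygous, and 9.49 and 9.99 in wild-type cells. It fell by 0.93 ± 0.22 in heterozygous against wild type (adjusted p = 0.0455) and differed by 0.77 ± 0.20 in null against heterozygous (adjusted p = 0.0604). Npc1 held this call under 8 of 20 alternatives, and lost it whichever array was left out, null arrays included. All 3 calls in heterozygous against wild type ended when either wild-type array or heterozygous replicate 1 was left out, which left 0 of the 29 genes past the threshold. Without heterozygous replicate 1 the differences were -1.16 for Abcg1, -0.78 for Abca1 and -0.73 for Npc1. The call of Abcg1 in null against heterozygous also ended without heterozygous replicate 1, with a difference of 1.09, and Abca1 passed there without heterozygous replicate 2 (0.97, adjusted p = 0.0382). In the heterozygous arrays the macrophage marker sums were higher and the progenitor and neuron sums lower than in wild type, as given above. Single astrocyte markers moved both ways, and of 5 neuron markers 2 differences were below 0 and 3 above. At an unadjusted limma p under 0.05, 3 of 10 myelinating oligodendrocyte markers were higher and 0 lower than in wild type (29.9% of all genes). Over that list, 7 differences were above 0 and 3 below. The part of these cell types in the falls was not tested.

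**Figure D4:**
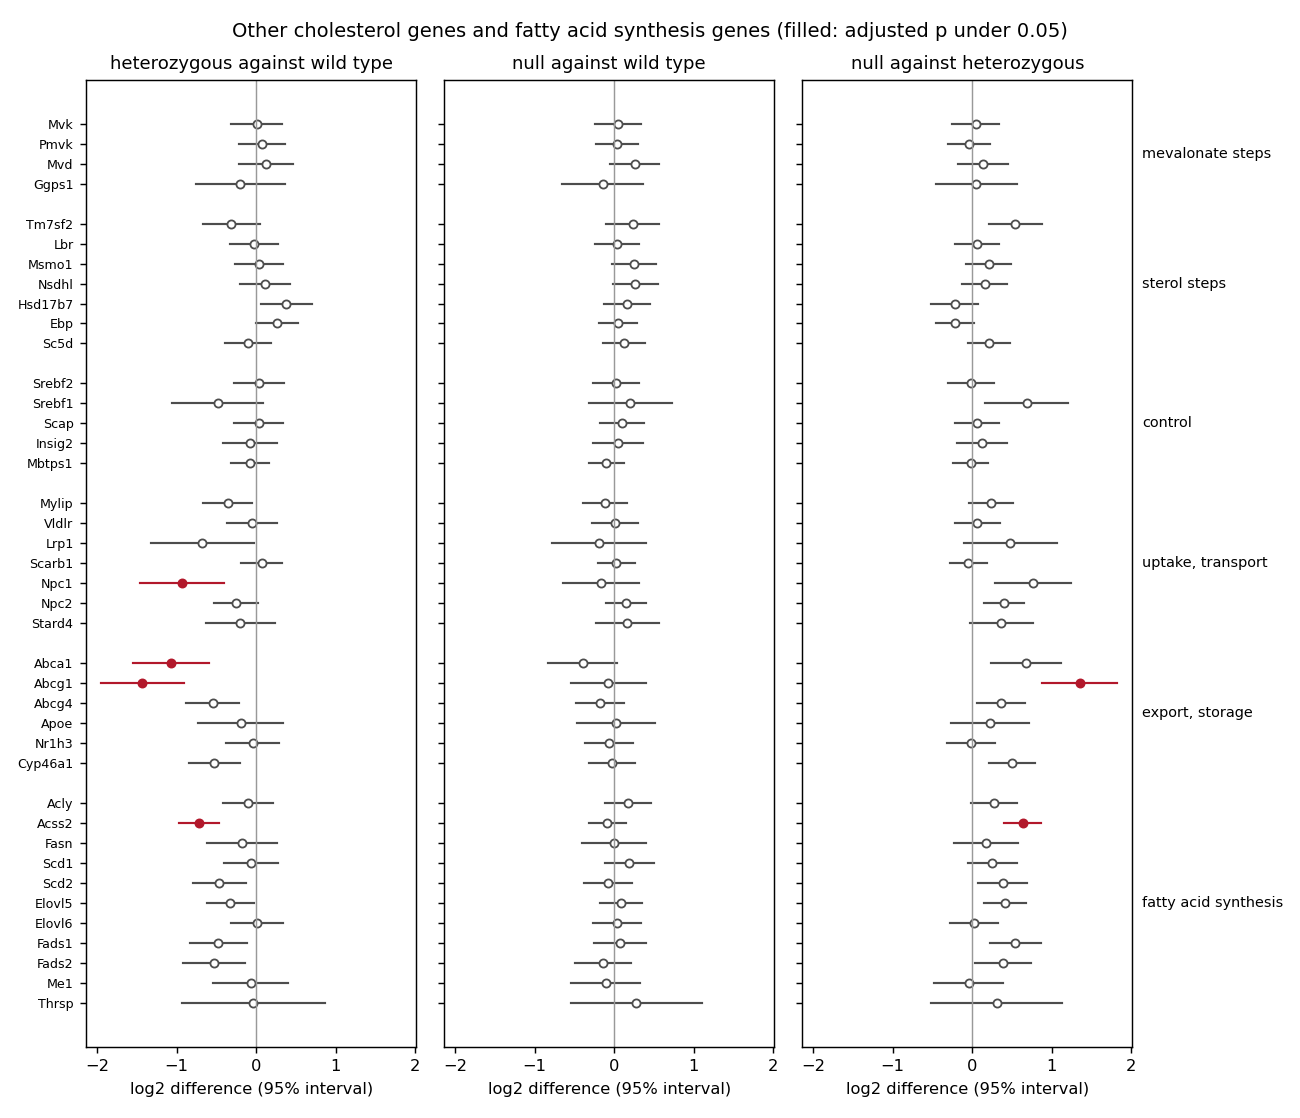
Log2 differences (points) with 95% intervals (lines) of the tested cholesterol genes other than the 8 enzymes and of fatty acid synthesis genes, by role, for each pair of genotypes. Filled red points passed the adjusted threshold: Npc1, Abca1, Abcg1 and Acss2 were lower in heterozygous than in wild-type cells, and Abcg1 and Acss2 were higher in null than in heterozygous cells.

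By role, none of the 4 mevalonate genes, 7 sterol genes or 5 control genes passed limma's threshold in any pair of genotypes. At an unadjusted p under 0.05 there were 0, 2 and 0 in heterozygous against wild type (29.9% of all genes). In null against wild type there were 0, 0 and 0 (5.14% of all genes), and in null against heterozygous 0, 1 and 1 (28.5%). Tm7sf2, a sterol reductase as Dhcr7 is, was at 7.98, 7.58 and 7.88 in null, 7.24 and 7.30 in heterozygous, and 7.50 and 7.66 in wild-type cells. Its difference of 0.54 ± 0.14 in null against heterozygous did not pass (adjusted p = 0.0558). Hsd17b7, a sterol ketoreductase, differed by -0.22 in that comparison and by 0.38 in heterozygous against wild type (adjusted p = 0.115), with -0.13 in its other probe set. Srebf2, which encodes SREBP2, was at 8.20, 8.24 and 8.11 in null, 8.20 and 8.19 in heterozygous, and 7.99 and 8.32 in wild-type cells. Its differences were 0.03 (95% interval -0.26 to 0.31) in null and 0.04 (-0.28 to 0.35) in heterozygous against wild type. Its second probe set gave -0.04 and -0.20, with both heterozygous arrays (7.90 and 7.93) below all others, so the probe sets differ in sign. Srebf1, whose products act mainly on fatty acid genes, differed by 0.69 ± 0.22 in null against heterozygous (adjusted p = 0.0949), and Mbtps1, a protease that releases SREBP factors, by -0.02. Among the genes listed with the mevalonate steps, Mvd, the mevalonate diphosphate decarboxylase, and Ggps1, which makes geranylgeranyl diphosphate, had the smallest F-test p, with differences of 0.26 (adjusted p = 0.882) and -0.14 (adjusted p = 0.941) in null against wild type.

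Related routes were counted in the same way. Of 11 fatty acid synthesis genes tested, 1 fell in heterozygous against wild type, where 5.95% of all genes were called lower. In null against wild type 0 passed, as did 0% of all genes, and in null against heterozygous 1 rose (5.0% called higher). At an unadjusted p under 0.05, 5 were lower and 0 higher in the first, against 17.2% and 12.7% of all genes. There were 0 in the second (5.14% of all genes) and 5 in the third, all higher (16.5% higher). Both calls were of Acss2, which makes acetyl-CoA from acetate. Its log2 level was 8.25, 8.30 and 8.33 in null, 7.75 and 7.56 in heterozygous, and 8.36 and 8.39 in wild-type cells. It fell by 0.72 ± 0.11 in heterozygous against wild type (adjusted p = 0.0130) and rose by 0.64 ± 0.10 in null against heterozygous (adjusted p = 0.0162), with -0.55 and 0.61 in its other probe set. These calls held under 14 and 15 of 20 alternatives and both ended without heterozygous replicate 1. The first also ended without either wild-type array and the second without null replicate 3. Of 7 genes of the isoprenoid side branches, 0 passed limma's threshold in any pair. At an unadjusted p under 0.05 there were 2 in heterozygous against wild type (29.9% of all genes). There were 0 in null against wild type (5.14%) and 1 in null against heterozygous (28.5%). Fnta, a farnesyltransferase subunit, and Rabggtb, a subunit of the enzyme that prenylates Rab proteins, had the smallest F-test p of these genes. Their differences were 0.31 and -0.27 in null against heterozygous.

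The pattern of the 8 enzymes over the 7 arrays was most like that of Osbpl10 (r = 0.93 with their mean), Il15ra (0.92), Muc5ac (0.89), Mapk12 (0.89) and Phlda1 (0.86), among the 4066 genes outside all lists that varied enough to be compared (SD over arrays of at least 0.2). Each of these 5 genes had its lowest value in wild type replicate 1, as the enzymes' mean had. All but Phlda1 lay below the lowest array median (6.63) on every array, with Osbpl10 at 4.69 to 5.31 and Muc5ac at 4.57 to 5.17. The SDs of Osbpl10 (0.203), Phlda1 (0.209) and Muc5ac (0.214) were close to the minimum of 0.2. Within the pathway, where no minimum SD was set, Mvd (0.86), Msmo1 (0.83) and Nsdhl (0.79), further enzymes of the route, came closest. Their SDs of 0.167, 0.156 and 0.159 were under the minimum used above. The lowest correlation was that of Mbtps1 (-0.40).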

How the data were processed

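RNA of sorted tumour cells, 75 ng for each of 7 samples, had been labelled with a 3' IVT kit and hybridised to mouse expression arrays, per the labels' protocols. The deposited values are log2 expression values per probe set. The submitters' processing notes list RMA and Partek 6.6, and RMA forces arrays to one distribution, so that a shift shared by most genes is not visible. No scanner files were analysed. Of 22626 probe sets other than controls, 20380 named 1 gene, 691 several and 1555 none here. The brightest probe set stood for each of 12393 genes, and genes whose value exceeded the array's 30th percentile on 2 or more arrays, 9243 in all, were tested.

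Genotype means were estimated from the 7 arrays together (limma 3.58.1, R 4.3.3; 4 residual degrees of freedom), with moderated two-sided tests and Benjamini-Hochberg adjustment over the genes tested (threshold 0.05). Precision is limited by the number of arrays. The procedure was tested on simulated data. The members, gene lists, motifs and alternatives were chosen with earlier results of these data known. Named are all 8 enzymes, list genes past the threshold in any pair (otherwise the 2 of smallest F-test p), Srebf2, Ptprd and the 5 genes most like the enzymes' mean. Cell type marker lists are given as sums of linear values and counts. Msmo1, Nsdhl, Xist and Eif2s3y were named after their values were seen. Alternatives changed the filter, the probe sets, the test, the normalization, the arrays included and the covariates.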

Additional observations from a re-analysis of the deposited data

How the results depend on the processing

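With 2 or 3 arrays in a genotype, only differences large against the spread between arrays could pass. In heterozygous and in null against wild type, 0 of the 8 enzymes passed under each of the 20 alternatives. All genes past the threshold in null against wild type also numbered just 0 to 1 under them, so the 0 there says little about the enzymes. In null against heterozygous the count of 1 (Dhcr7) became 0 under the unmoderated model, array quality weights, the 3' minus 5' covariate and the replicate block, and without both heterozygous replicate 1 and null replicate 1 (the arrays with Xist and Y-linked RNA, a setting chosen after seeing the data), and was 0 to 1 with 1 array left out. The F test called 1 enzyme with a mean-variance trend and 1 with median centring. The median difference of the enzymes in heterozygous against wild type was 0.0567 with the mean of probe sets and 0.0610 with shared-probe sets left out. Of the 29 other pathway genes, the count in heterozygous against wild type was 0 under the unmoderated model, with the pair alone and without both arrays, 5 with array quality weights, and 0 to 3 with 1 array left out. In null against heterozygous it was 3 with a 50th percentile filter, 5 with median centring, 2 with the mean of probe sets, with a mean-variance trend and with quantile normalization again, 0 under the unmoderated model, the replicate block and without both arrays, and 0 to 2 with 1 array left out. Over all genes, the counts of 938 and 828 in heterozygous against wild type and null against heterozygous were 33 to 768 and 44 to 734 with 1 array left out, and 0 and 0 without both arrays. The F test's 522 were 9 without heterozygous replicate 1, 59 without heterozygous replicate 2, 99 without wild type replicate 2, 161 to 478 without another single array, 29 with the replicate block and 0 without both arrays. The cause of these changes was not tested.

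Differences near 0 changed sign in some settings. With 1 array left out, the ranges in null against wild type were -0.0917 to 0.0194 for Hmgcs1 (above 0 without wild type replicate 1), -0.144 to 0.221 for Lss (below 0 without wild type replicate 1), -0.414 to 0.0825 for Npc1 (above 0 without wild type replicate 2) and -0.215 to 0.0148 for Abcg1 (above 0 without wild type replicate 2 or null replicate 1). In heterozygous against wild type they were -0.132 to 0.0181 for Hmgcs1 and -0.0258 to 0.125 for Sqle (turned without wild type replicate 1). Between null and heterozygous they were -0.138 to 0.0550 for Fdps (above 0 without heterozygous replicate 1 or null replicate 3), and, below 0 without heterozygous replicate 2 or null replicate 2, -0.0323 to 0.0647 for Hmgcs1 and -0.122 to 0.1495 for Idi1; for Cyp51 they were -0.303 to -0.0768. Other settings turned Acss2 in null against wild type (0.0569 with shared-probe sets left out) and, without both arrays, Abcg1 there (0.0148). Between null and heterozygous they turned Fdps (0.000794 with median centring, 0.0550 with the replicate block, 0.0329 without both arrays), Hmgcs1 (-0.0240 with the mean of probe sets, -2.24e-05 with the 3' minus 5' covariate), Idi1 (-0.00942 with that covariate) and Cyp51 (0.0157 without both arrays).

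The main fit did not pair arrays by replicate number. Deviations of same-numbered arrays from their genotype means correlated at 0.111 between heterozygous and wild type. They correlated at -0.179 and -0.414 between null and wild type, and at 0.0217 and -0.193 between null and heterozygous. Where a genotype has 2 arrays, their deviations mirror each other, so these values cannot exclude a pairing. With the replicate block, Dhcr7 differed by 0.54 in null against heterozygous, and all genes past the threshold numbered 217 in heterozygous against wild type and 25 in null against heterozygous.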
